A study of Mus musculus with 36 samples.

Results

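Cholesterol synthesis in the mouse gastrocnemius was followed through 7 genes of the 46893 features counted, chosen by their gene symbols: Hmgcs1, Idi1, Fdft1, Sqle, Lss, Srebf2 and Insig1. The first 5 encode enzymes of the pathway and the other two encode regulators of it, and none of the 7 encodes a lipoprotein receptor. RNA was sequenced from 36 male wild-type C57BL/6 mice in 6 groups of 6, each library from the muscle of 1 mouse. NFD-C mice were sedentary on the normal-fat diet and HFD-C mice were sedentary on the high-fat diet. The 4 running groups also received the high-fat diet and ran voluntarily on wheels in their cages, which were braked once the assigned distance was reached. HFD-25%, HFD-50% and HFD-75% ran on average 2.1, 4.2 and 6.3 km/day, and HFD-U had free access and ran 8.3 km/day. Mice were 3 to 4 weeks old at the start, and muscle was collected after 12 weeks. The study's methods describe the 5 high-fat groups only, so that the NFD-C mice are known from the labels. Only males were studied, and the sample was whole muscle.

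Cells make cholesterol from acetyl-CoA through the mevalonate pathway. When sterols in the endoplasmic reticulum are scarce, the transcription factor SREBP-2, encoded by Srebf2, is carried by its escort Scap to the Golgi, is cut there, and turns on the genes of the pathway, while the Insig proteins hold the complex back when sterols are plentiful. Skeletal muscle makes some of its own cholesterol and isoprenoids and also takes up cholesterol from lipoproteins. In order of action, Hmgcs1 is the cytosolic HMG-CoA synthase that makes the substrate of the rate-limiting reductase. Idi1 interconverts the isoprene units, Fdft1 (squalene synthase) makes the first step committed to sterols, Sqle oxidises squalene, and Lss closes the ring to lanosterol.

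The 250 bases before the transcription start were searched, on both strands, for motifs of this regulatory system, in 5 of the 7 genes with an entry in the RefSeq promoter table for GRCm38.p6 (not Sqle and Fdft1). Shown here are the 4 genes that make up the 3 pairs correlated between mice of the same group (given further on), 5′ to 3′. Capitals mark TCACNCCAC, a motif like the sterol regulatory element that SREBP binds, the CCAAT box (CCAAT, or ATTGG on the other strand) of the factor NF-Y, and the GC box (GGGCGG, or CCGCCC on the other strand) of Sp1.
Hmgcs1, chr13:119690101-119690350, + strand: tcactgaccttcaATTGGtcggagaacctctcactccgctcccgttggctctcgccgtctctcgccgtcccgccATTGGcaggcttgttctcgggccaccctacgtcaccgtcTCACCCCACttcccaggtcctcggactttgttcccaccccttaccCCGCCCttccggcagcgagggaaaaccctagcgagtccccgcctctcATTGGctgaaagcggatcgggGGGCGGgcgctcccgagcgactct
Idi1, chr13:8885356-8885605, + strand: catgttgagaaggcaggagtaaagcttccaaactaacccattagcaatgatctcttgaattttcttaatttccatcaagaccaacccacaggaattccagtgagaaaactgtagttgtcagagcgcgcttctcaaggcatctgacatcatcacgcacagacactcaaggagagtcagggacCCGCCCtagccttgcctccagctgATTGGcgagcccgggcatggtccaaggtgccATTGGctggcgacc
Srebf2, chr15:82147019-82147268, + strand: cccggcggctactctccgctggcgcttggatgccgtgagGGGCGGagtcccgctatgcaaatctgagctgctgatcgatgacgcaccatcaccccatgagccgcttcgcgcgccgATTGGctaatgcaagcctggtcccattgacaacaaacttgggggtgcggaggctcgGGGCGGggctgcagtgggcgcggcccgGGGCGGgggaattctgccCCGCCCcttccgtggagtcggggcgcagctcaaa
Insig1, chr5:28071162-28071411, + strand: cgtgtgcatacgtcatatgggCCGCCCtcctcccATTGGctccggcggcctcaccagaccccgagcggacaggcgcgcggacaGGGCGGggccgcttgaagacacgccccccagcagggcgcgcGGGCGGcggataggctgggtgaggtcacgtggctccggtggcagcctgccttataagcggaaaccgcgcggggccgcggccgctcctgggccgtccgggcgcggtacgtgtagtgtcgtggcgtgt
The motif TCACNCCAC was found in Hmgcs1 alone of the 5, as TCACCCCAC from 137 to 129 bases before the start. It occurred in 1.05% of the 32851 promoter windows of this length. CCAAT occurred in all 5 and in 33.8% of all windows, and GGGCGG occurred in all 5 and in 32.7% of all windows. The palindrome TCACGTGA, an E-box that SREBP also binds, was found in 0 of the 5 and in 0.785% of all windows. These are exact matches of letters, and the binding of no factor was measured. Stretches that differ from a motif by a single letter were not counted, such as TCACCCCAT in Srebf2 and TCACGTGG in Insig1.

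The libraries held from 13060090 to 27981702 counted reads (median 16710687.5). All 7 genes passed the limit of a mean count of 25 in every comparison. In 10 libraries, all 6 NFD-C and HFD-C mice 1 to 4, features linked to ribosomal RNA took over 1.43% of the counts, up to 3.80%, whereas HFD-C mice 5 and 6 and the 24 running mice were lower, down to 0.404%. Running and this share therefore cannot be fully told apart, and values within the libraries of low share are given where they bear on a result. The features counted in the share were AY036118, LOC118568312, mt-Rnr1, mt-Rnr2 and Lars2, a gene the study also tested by qPCR. LOC118568312 had the highest mean of them in NFD-C and HFD-C. In the running groups it was the mitochondrial mt-Rnr2, at 2809 CPM in HFD-50% and 1918 CPM in HFD-U. Markers of muscle fibres (Acta1, Ckm, Myh4, Tnnt3, Pvalb, Mylpf) summed to between 66712 and 154014 CPM (read counts scaled to the size of each library) in every library. Mylpf added almost nothing to this sum, with a mean of 0.797 CPM. In bulk tissue, fewer cells of a type and less RNA per cell cannot be told apart.

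Per length of transcript (FPKM, CPM divided by the gene length in kilobases), Fdft1 had the highest mean level over the 36 mice, at 7.96 ± 1.52 (SD, n = 36). Hmgcs1 followed at 5.70 ± 1.12 and Insig1 at 2.92 ± 0.453 FPKM. Srebf2 reached 1.94 ± 0.337 FPKM. Lss (0.852 ± 0.232), Idi1 (0.755 ± 0.300) and Sqle (0.713 ± 0.232 FPKM) were lowest and lay within each other's spread. Fdft1 was above Hmgcs1 in 33 of 36 mice, and Hmgcs1, Insig1, Srebf2 and Lss kept their order in 36 of 36. Lss was above Idi1 in 23 of 36 mice and Idi1 above Sqle in 19 of 36. RNA of early and late enzymes was thus present at unequal levels, and of the 5 enzyme genes Fdft1 (squalene synthase) had the highest mean. Its level may include reads from a stretch shared with Ctsb, described further on. Fdps, which encodes the enzyme directly before squalene synthase and is not one of the 7 genes, had a higher mean of 12.4 FPKM.

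Fdft1, on chromosome 14 at 63382599 to 63419136 (GRCm39), was the member that differed between the groups. It was lowest in the sedentary mice on the normal-fat diet and highest in the mice that ran 4.2 km/day. In NFD-C its level ran from 58.8 to 73.9 CPM (median 66.6), and in HFD-C from 67.1 to 81.1 CPM (median 76.0). In HFD-25% it ran from 68.5 to 106 CPM (median 80.7), and in HFD-50% from 80.5 to 143 CPM (median 98.4). Squalene synthase RNA was therefore above the highest HFD-C mouse in 5 of 6 HFD-50% mice, and the lowest HFD-50% mouse lay just inside the HFD-C range. In HFD-75% it ran from 73.0 to 103 CPM (median 85.8), and in HFD-U from 73.2 to 89.0 CPM (median 83.1). Of these, 5 of 6 HFD-75% mice and 4 of 6 HFD-U mice were above every HFD-C mouse, against 2 of 6 in HFD-25% and 0 of 6 in NFD-C. The order of the group means was NFD-C, HFD-C, HFD-U, HFD-25%, HFD-75% and HFD-50%, and the ranges of neighbours in this order overlapped.

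**Figure D1:**
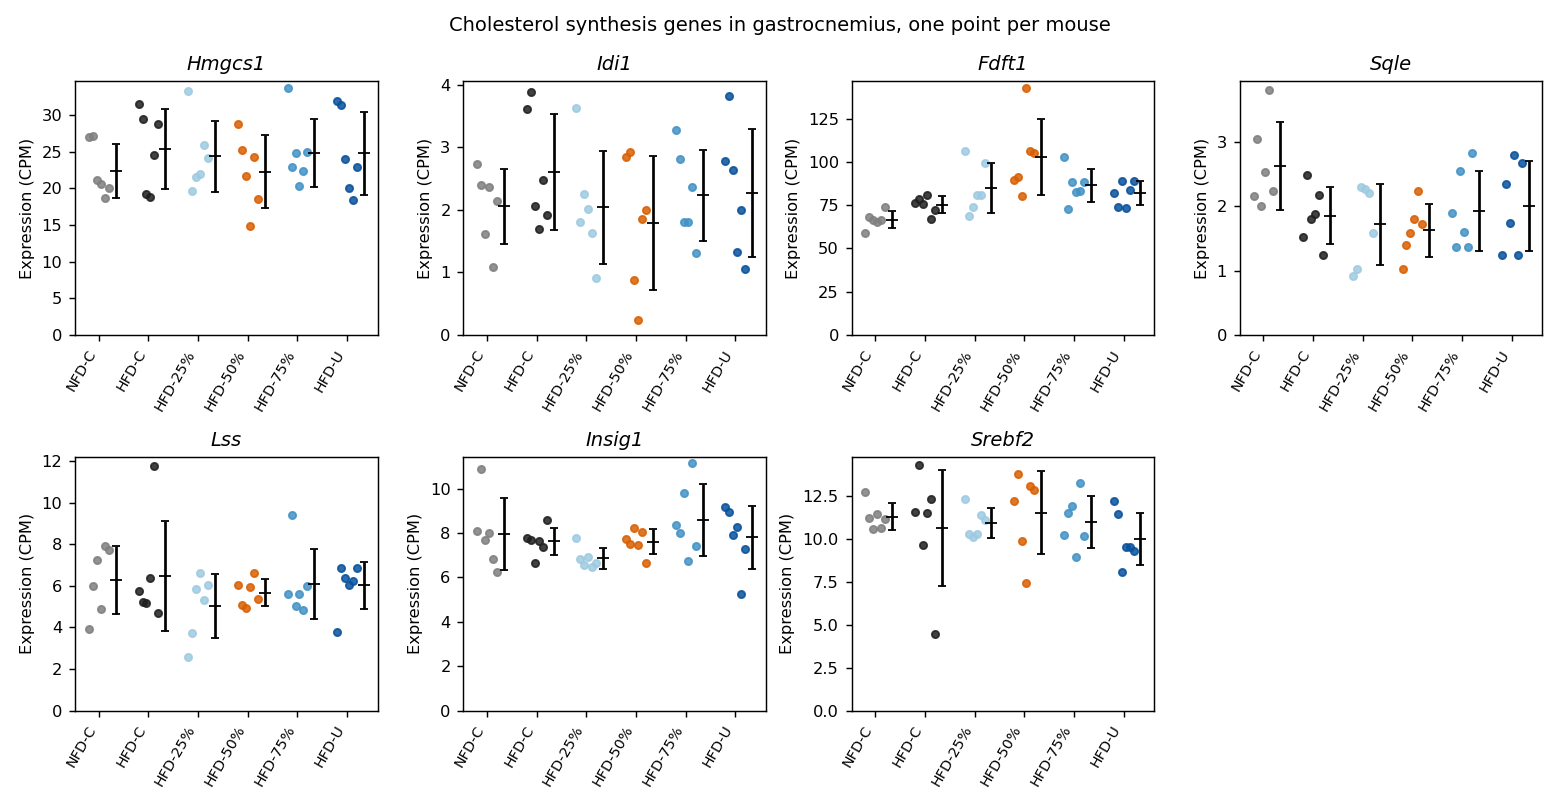
Level of each of the 7 genes in CPM (y axis, from 0) in the 6 groups (x axis), with 1 point per mouse and the mean ± SD beside the points. Fdft1 is highest in HFD-50%, with means from 66.5 in NFD-C to 103 in HFD-50%, and the ranges of the groups overlap with HFD-C for the other 6 genes.

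Groups were compared with the quasi-likelihood test of edgeR, and a gene is named as called where its unadjusted p was at most 0.05. Fdft1 was higher in HFD-50% than in HFD-C by 0.46 on the log2 scale, or 1.37-fold (SE 0.139, 95% interval 0.16 to 0.75), which was called but had an adjusted p = 0.246 over the 12116 genes of the fit (Benjamini-Hochberg). It was 1 of 7 members called in HFD-50%, a share to be read against 10.7% of all genes. Leaving out HFD-50% mouse 4, the highest of all mice at 143 CPM, gave 0.33, which was still called (adjusted p = 0.278). The log2 difference was 0.18 in the HFD-25% mice (95% interval -0.074 to 0.42), 0.20 in the HFD-75% mice (-0.0022 to 0.41) and 0.12 in the HFD-U mice (-0.068 to 0.32). In these 3 comparisons 0 of 7 members were called, against 6.98%, 5.47% and 5.46% of all genes. The same HFD-C mice serve in each of them. All 24 running mice together were higher than HFD-C by 0.24 (SE 0.104, edgeR adjusted p = 0.447), and 1 of 7 members was called, against 9.27% of all genes. That call was lost without HFD-C mouse 5, the lowest of its group, where the difference was 0.22.

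Over all 6 groups, Fdft1 was the only member past the adjusted threshold in edgeR's test (adjusted p = 0.0187, rank 74 of 12053). It was 1 of 7 members called at either threshold, against 12.2% of all genes before adjustment and 1.45% after it. Once the rRNA-linked share was a covariate its edgeR adjusted p = 0.109, and among the 5 high-fat groups alone, an alternative chosen after seeing the data, it was 0.333. Along the distance from 0 to 8.3 km/day, fitted by a straight and a squared term, 1 of 7 members was called, against 12.2%, and this was Fdft1 (edgeR adjusted p = 0.200). Among the 4 running groups 0 of 7 members were called, against 7.27%. The middle distance was also compared directly with the others. Fdft1 was higher in HFD-50% than in HFD-U by 0.33 (SE 0.137, edgeR adjusted p = 0.356), the 1 member of 7 called, against 12.4% of all genes. It was 0.21 without HFD-50% mouse 4 and 0.13 when the rRNA-linked share was a covariate, and was called in neither. Against HFD-25% (2.69% of all genes called) and HFD-75% (5.37%) 0 of 7 members were called.

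**Figure D2:**
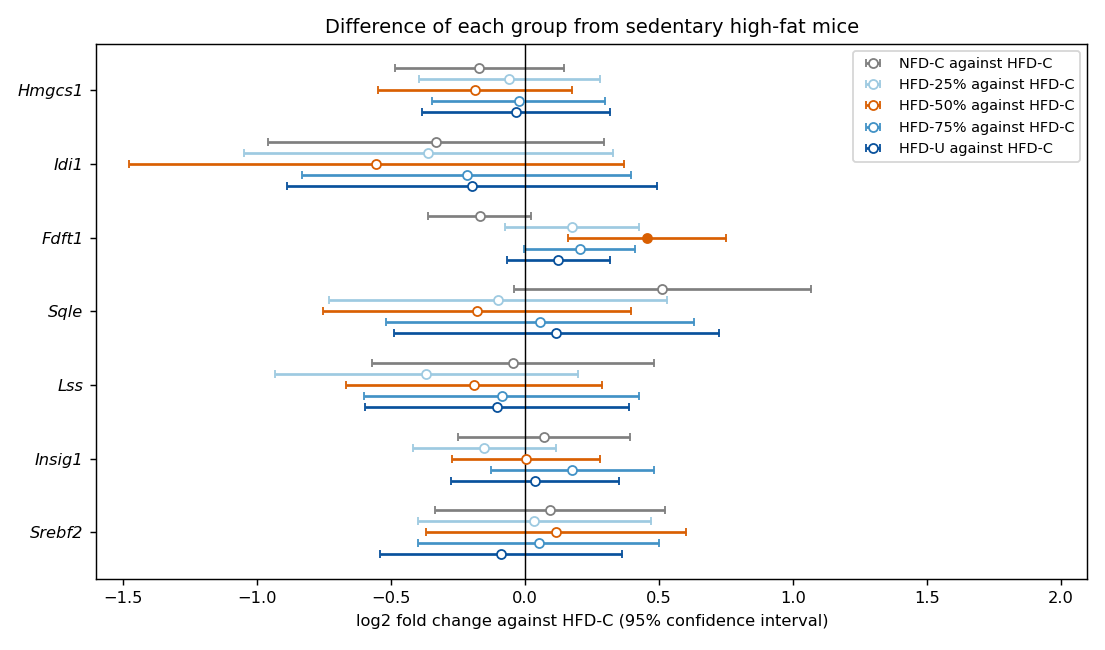
Difference of each group from HFD-C on the log2 scale (x axis, with 95% confidence intervals from edgeR's quasi-likelihood fit) for the 7 genes (y axis). Filled points have p of at most 0.05, and Fdft1 in HFD-50% is the filled one, at 0.46.

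The diet comparison between sedentary mice called 0 of 7 members, against 4.12% of all genes. Fdft1 was lower in NFD-C than in HFD-C by 0.17 on the log2 scale (95% interval -0.36 to 0.023), which was not called, and 4 of 6 NFD-C mice lay below every HFD-C mouse. Within HFD-C, the 4 libraries of high rRNA-linked share had 75.7 to 81.1 CPM and the 2 of low share 67.1 and 72.5 CPM. With the high-share libraries alone, the NFD-C difference was -0.23, and with the low-share libraries alone the HFD-50% difference was 0.57, and both were called.

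The end of Fdft1 overlaps that of Ctsb (cathepsin B, a lysosomal protease) on the opposite strand over 774 bases, from 63382599 to 63383372 of chromosome 14. Whether the counting used strand is not given in the sources used here, so reads from this stretch cannot be assigned with certainty. Ctsb had a mean count of 4320 against 1426 for Fdft1. Its level ran from 220 to 319 CPM in HFD-C (median 241) and from 202 to 300 CPM in HFD-50% (median 256). Its log2 difference was 0.023 (95% interval -0.26 to 0.30, edgeR adjusted p = 0.971). These ranges of Ctsb overlapped, and those of Fdft1 were nearly separate. HFD-25% mice 1 and 6 were the highest of their group for both genes (Ctsb 342 and 300 CPM, Fdft1 106 and 99.1 CPM). In HFD-75%, mouse 1 was highest and mouse 2 lowest for both. In NFD-C, HFD-C, HFD-50% and HFD-U, no mouse was highest for both genes or lowest for both. The part of shared reads in the level of Fdft1 was not tested.

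**Figure D3:**
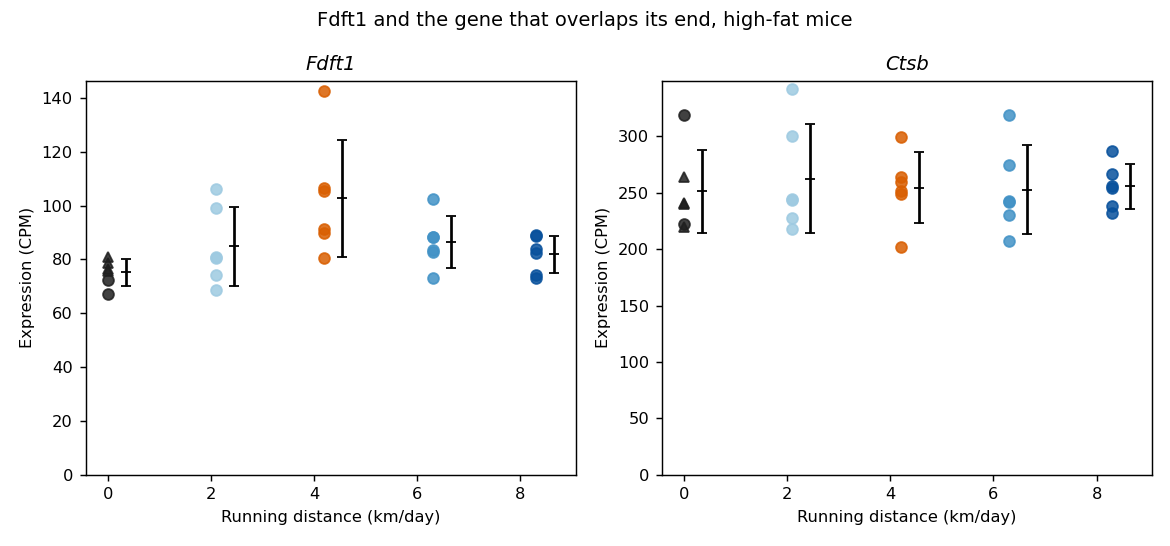
Fdft1 (left) and Ctsb (right) in CPM (y axis, from 0) against running distance in km/day (x axis) in the 30 mice on the high-fat diet, with 1 point per mouse, triangles for libraries of high rRNA-linked share and mean ± SD in black. Fdft1 has its highest mean, 103, at 4.2 km/day, while the mean of Ctsb stays between 251 and 263.

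For the other 6 genes, 30 differences from HFD-C were fitted and 0 of them were called. They ran from -0.55 to 0.51 on the log2 scale, and every group's range overlapped that of HFD-C. With Fdft1 included, the median of the 7 was -0.18 in HFD-50%, against 0.010 over all genes, and between -0.10 and 0.052 in the other 4 groups.

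Among the early enzymes, Hmgcs1 ran from 18.8 to 31.5 CPM in HFD-C (median 26.6) and from 14.9 to 28.8 CPM in HFD-50% (median 23.0). The log2 difference was -0.19 (95% interval -0.55 to 0.17, edgeR adjusted p = 0.737), the widest of this gene. HMG-CoA synthase RNA was below every HFD-C mouse in 2 of 6 HFD-50% mice. Idi1 ran from 1.69 to 3.88 CPM in HFD-C (median 2.27) and from 0.231 to 2.93 CPM in HFD-50% (median 1.93). Its difference was -0.55 (95% interval -1.48 to 0.37, edgeR adjusted p = 0.693), and the lowest HFD-50% value rested on 4 counts. Without that mouse, HFD-50% mouse 4, the Idi1 difference was -0.32, and with the low-share libraries alone it was -0.30.

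Among the late enzymes, Sqle, the squalene epoxidase, ran from 1.24 to 2.48 CPM in HFD-C (median 1.84) and from 2.001 to 3.80 CPM in NFD-C (median 2.39). The difference was 0.51 (95% interval -0.042 to 1.07), with 3 of 6 NFD-C mice above every HFD-C mouse. In the running groups its medians lay between 1.65 and 2.04 CPM. Lss ran from 4.67 to 11.8 CPM in HFD-C (median 5.49) and from 2.59 to 6.59 CPM in HFD-25% (median 5.59), with a difference of -0.37 (95% interval -0.93 to 0.20). The 2 medians thus lay in the opposite order to the fitted means. The highest value of this lanosterol synthase belonged to HFD-C mouse 5 and the next HFD-C mouse had 6.38 CPM. Without HFD-C mouse 5 the difference of Lss was -0.11, without HFD-25% mouse 1 it was -0.23, and with a term for the library set it was -0.71, none of them called.

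Of the regulators, Srebf2 ran from 4.46 to 14.3 CPM in HFD-C (median 11.5) and from 7.46 to 13.8 CPM in HFD-50% (median 12.5), with a difference of 0.12 (95% interval -0.37 to 0.60). Insig1 ran from 6.66 to 8.59 CPM in HFD-C (median 7.67) and from 6.72 to 11.1 CPM in HFD-75% (median 8.18), with a difference of 0.18 (95% interval -0.13 to 0.48). RNA levels of the transcription factor and of its retention protein thus overlapped between sedentary and running mice. For all running mice against HFD-C, the differences were -0.078 for Hmgcs1, -0.33 for Idi1, -0.026 for Sqle, -0.19 for Lss, 0.027 for Srebf2 and 0.017 for Insig1, and none was called.

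The members also differed in how much mice of the same group varied. The coefficient of variation within groups was 41.1% for Idi1 and 30.2% for Sqle, and that of Lss was also above the median of 21.5% over the 12053 genes tested. Hmgcs1 had 20.5%, Srebf2 18.1%, Insig1 15.1% and Fdft1 14.6%, below that median. The 3 genes of lowest level were the most variable of the 7, with counting error included in these values.

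Between mice of the same group, 3 of the 21 pairs of members were correlated by Pearson's r after Benjamini-Hochberg adjustment over the pairs, and 4 by Spearman's rho, with group means removed from log2 CPM and 100000 permutations within groups (two-sided). Hmgcs1 and Idi1 had r = 0.67 and rho = 0.62 (n = 36, permutation adjusted p = 0.00273 and 0.00770), and r = 0.58 without the 2 mice farthest from the median. Idi1 and Srebf2 had r = 0.52 and rho = 0.57 (permutation adjusted p = 0.00682 and 0.00770), and r = 0.45 without 2 such mice. Hmgcs1 and Insig1 had r = 0.51 and rho = 0.54 (permutation adjusted p = 0.00861 and 0.00770), and r = 0.52 without them. The pair that passed by rho alone was Lss and Insig1, which went in opposite directions (rho = -0.47, permutation adjusted p = 0.0251, r = -0.35, permutation adjusted p = 0.171). Of the other pairs among Hmgcs1, Idi1, Srebf2 and Insig1, 3 did not pass, with r between 0.12 and 0.28. Fdft1 had r between -0.26 and 0.052 with the other 6. Over all 21 pairs r ran from -0.35 to 0.67 with a median of -0.021. With mice numbered 2 to 6 alone, the 3 pairs had r = 0.54, 0.51 and 0.52, and 0 of 21 pairs passed the permutation test after adjustment. In every group the highest Hmgcs1 and the highest Idi1 were in mouse 1 or mouse 2. The permutations exchanged mice of a group whatever their number, so the p-values do not allow for levels that go with the number. All values of a mouse come from 1 library, and how often pairs of other genes correlate as strongly in these libraries was not tested.

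**Figure D4:**
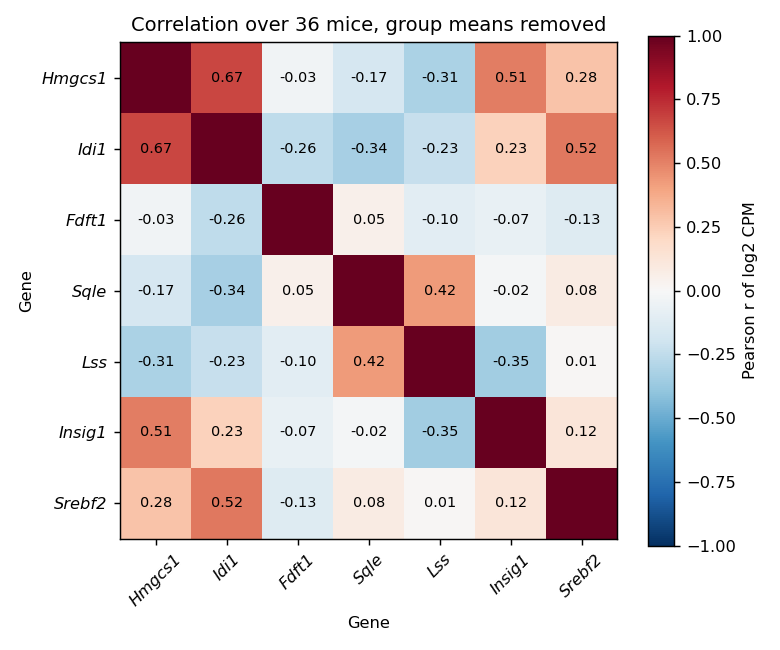
Pearson correlation (colour and number) between the 7 genes (both axes) in log2 CPM over 36 mice with group means removed. Hmgcs1 with Idi1 has the highest value, 0.67, and Lss with Insig1 the lowest, -0.35.

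In HFD-50% mouse 4, which had the highest Fdft1 of all mice, Hmgcs1 (14.9 CPM) and Idi1 (0.231 CPM) were at their lowest of all mice. RNA of squalene synthase and RNA of these earlier enzymes thus lay at opposite ends in this muscle. The Idi1 value rested on 4 counts, and the rRNA-linked share of 1.02% was the highest among the low-share libraries. Without the 2 mice farthest from the median, which include this mouse, r of Fdft1 went from -0.26 to 0.097 with Idi1. With Hmgcs1 it went from -0.034 to 0.050. In HFD-25% mouse 1, Sqle (0.920 CPM) and Lss (2.59 CPM) were the lowest of all mice, while its Hmgcs1 was 33.2 CPM, the highest of its group.

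Other genes were ranked by their correlation with the mean of the members' standardised log2 CPM over the 36 mice. The members did not all vary together (median r of -0.021 over 21 pairs, group means removed). Their mean is therefore not a pattern that each of them shares. Wars, a tryptophanyl-tRNA synthetase, came first with r = 0.66, followed by Nkapd1 (0.65), Ahcyl2 (0.63) and Scarb2 (0.62), a lysosomal membrane protein. Pds5a, Tut7, Eif4enif1, Gpd1l, Mrs2 and Stk24 completed the 10, down to r = 0.60. None of the other listed sterol or fatty acid genes was among the 10. Over all 12046 genes ranked, the 5th and 95th percentile of r were -0.41 and 0.44, and these values are a description.

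Of 17 other enzymes of the pathway tested, 2 were lower and 0 higher in HFD-25% than in HFD-C, against 6.98% of all genes called in either direction. Among them was Hsd17b7 (-0.55 on the log2 scale), an enzyme of the steps after lanosterol. In HFD-50% 1 of 17 was lower and 0 were higher, against 10.7% of all genes, and 0 of 17 were called in HFD-75% or HFD-U. Mvd, the decarboxylase of the mevalonate part, was lower in NFD-C (-0.64), the 1 called of 17, against 4.12% of all genes. That call was lost with 4 of the 12 mice left out in turn. The median log2 difference of the 17 was 0.041 at the shortest distance and -0.026 in the HFD-50% mice, and none of the 17 passed the adjusted p in a comparison with HFD-C.

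Of 11 further regulators of SREBP, Scap was called in HFD-50% (0.25 higher on the log2 scale) and Srebf1, which encodes the SREBP of fatty acid synthesis, in NFD-C (0.34 higher). These were 1 of 11 in each, against 10.7% and 4.12% of all genes. The call of Scap was lost under 4 of 9 alternatives, such as the low-share libraries alone, and with 3 of 12 mice left out in turn. Against HFD-C 0 of 11 were called in HFD-25%, HFD-75% or HFD-U. The median log2 difference of the 11 in HFD-50% was -0.14, against 0.010 over all genes.

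The list of lipoprotein uptake and sterol export from the lysosome had 12 genes tested. The HFD-25% mice had 4 called higher and 2 lower, and the HFD-50% mice 4 higher and 1 lower. At the longer distances 2 were higher and 0 lower (HFD-75%), or 2 higher and 1 lower (HFD-U). The shares of all genes called in these comparisons were 6.98%, 10.7%, 5.47% and 5.46%. Their median log2 difference was 0.30, 0.41, 0.037 and 0.13 from the shortest to the longest distance, against 0.010 over all genes in HFD-50%. Npc1, which exports cholesterol from lysosomes, was among the higher ones in each. Its level ran from 61.7 to 120 CPM in HFD-C (median 81.2) and from 105 to 191 CPM in HFD-50% (median 141). The log2 difference was 0.75 (SE 0.196, edgeR adjusted p = 0.169), with 3 of 6 HFD-50% mice above every HFD-C mouse. The other running groups differed by 0.51, 0.72 and 0.61 (HFD-25%, HFD-75%, HFD-U), and NFD-C was also higher, by 0.47, the 1 called of 12 there (4.12% of all genes). The call in HFD-25% was lost with 7 of 12 mice left out in turn. Npc1 was therefore lower at unadjusted p in HFD-C than in each of the other 5 groups, which all share that reference.

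Gramd1b, a carrier of cholesterol from the plasma membrane to the endoplasmic reticulum, ran from 7.58 to 15.5 CPM in HFD-C (median 10.5) and from 11.3 to 44.4 CPM in HFD-50% (median 19.6). The difference was 1.22 on the log2 scale (SE 0.294, edgeR adjusted p = 0.139). It lay above every HFD-C mouse in 5 of 6 HFD-50% mice, as Fdft1 did. Over the 6 groups its adjusted p was 0.0165 in edgeR's quasi-likelihood test, the 1 gene of the 12 past that threshold. Gramd1b was also called in HFD-75% (0.60 higher). The calls in HFD-50% and HFD-75% were lost under 0 and 1 of 9 alternatives, and with 0 of 12 mice left out in turn. For all running mice against HFD-C, the call of Gramd1b was lost under 3 of 10 alternatives and with 5 of 6 HFD-C mice left out in turn. Lipa, the lysosomal acid lipase, was higher in HFD-25% (0.57), HFD-50% (0.44) and HFD-U (0.46). These calls of Lipa were lost under 4, 5 and 4 of 9 alternatives and with 6, 7 and 0 of 12 mice left out in turn, and without HFD-25% mouse 6 the difference in HFD-25% was 0.30. Mylip, a ligase that marks lipoprotein receptors for degradation, was higher in HFD-25% (0.51) and HFD-50% (0.57), calls lost with 5 and 0 of 12 mice left out in turn and under 0 of 9 alternatives.

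Of 9 tested genes of fatty acid synthesis, which the related factor SREBP-1c controls, 1 was called higher in each of HFD-25% (Thrsp, 0.60), HFD-50% (Pnpla3, 1.10) and HFD-75% (Pnpla3, 1.05), against 6.98%, 10.7% and 5.47% of all genes. Each of these 3 calls was lost under 3 of 9 alternatives, and with 1, 0 and 6 of 12 mice left out in turn. In HFD-U, Thrsp was higher (0.52) and Scd1 lower (-0.98), and in NFD-C Thrsp was higher (0.53), against 5.46% and 4.12% of all genes. Scd1 in HFD-U was at -0.40 and not called without HFD-C mouse 6, and its call was lost with 5 of 12 mice left out in turn. The calls of Thrsp were lost with 5 (HFD-U) and 4 (NFD-C) of 12, and under 3 and 0 of 9 alternatives. None of them passed the adjusted p.

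Markers of other cells were compared for the comparison in which Fdft1 was called, HFD-50% against HFD-C. Of 6 endothelial markers 1 was higher, of 6 fibroblast markers 1 was lower and of 5 muscle fibre markers tested 1 was lower, against 10.7% of all genes. Of the Schwann cell (5), adipocyte (6), blood (5) and immune (5) markers tested, 0 were called. The summed level of the fibroblast markers ran from 339 to 591 CPM in HFD-C and from 201 to 508 CPM in HFD-50%, and that of the endothelial markers from 125 to 239 and from 136 to 302 CPM. That of the muscle fibre markers ran from 85417 to 154014 and from 84410 to 128731 CPM. No summed list was separate between the groups, and the part of these cells in the Fdft1 difference was not tested.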

How the data were processed

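Gastrocnemius RNA of 36 mice was sequenced as poly(A)-selected paired-end libraries. The authors aligned reads with HISAT2 2.0.5 and counted them per gene with featureCounts 1.5.0-p3, versions given in the submitters' processing notes too, which name mm10. The deposited counts are whole numbers without normalization, and the chromosome sequences beside them are those of GRCm39. Use of strand in the counting is not given in the sources used here. No per-sample column was left unmapped. Nothing says more of the samples than 1 muscle per mouse, so n is mice.

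Counts were tested in R 4.3.3 with edgeR 4.0.16: a minimum of 25 for the mean count per gene in each fit, TMM factors, quasi-likelihood F-tests (two-sided), and Benjamini-Hochberg adjustment over all genes. Members were called at p of at most 0.05, the study's limit, or at an adjusted p of at most 0.05. CPM uses TMM-scaled library sizes, and FPKM divides CPM by the gene length listed with the counts. Each group was fitted with HFD-C alone. Replicates of 1 group differed by 16.2 to 218 times the variance of sampling (chi-square per degree of freedom, 90 pairs). The fit was tested on simulated data.

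The members, the lists of pathway and marker genes and the tests were chosen with earlier results of these data known. Named were all members, the genes of the lists at p of at most 0.05 against HFD-C, and the 10 genes most correlated with the mean of the members. Ctsb was named after its overlap with Fdft1 was seen. Of the lists, 4 genes are counted but not reported here by name. Alternatives were DESeq2 1.42.0, RLE factors, no minimum count, the rRNA-linked share as covariate, the library set (high or low share) as a term or 1 set alone, the replicate number as a block, 1 fit over 36 mice, mice 2 to 6 alone, and each mouse left out in turn.

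Replicate numbers were checked as pairs by how same-numbered mice deviated together from their group means. For HFD-U with HFD-C all 6 pairs were above 0.1 (0.125 to 0.510), and in that comparison the block called 0 of 7 members, as without it. Elsewhere, 1 to 5 of 6 pairs were above 0.1, so the numbers were not taken as pairs. Hmgcs1 and Idi1 were nevertheless highest in mouse 1 or mouse 2 of every group, and what the numbers stand for was not tested.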

Additional observations from a re-analysis of the deposited data

Results flagged for a closer look

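In 5 of 42 sets of 6 mice (7 genes in 6 groups), 1 mouse stood apart from the other 5 by more than Dixon's 95% critical value, where chance alone gives 1 in 20, or 2.1 sets. Lss accounted for 3 of them. In HFD-C mouse 5, Lss was at 11.8 CPM with the next mouse at 6.38, and in HFD-75% mouse 2 it was at 9.39 CPM with the next at 5.97. In HFD-U mouse 1, Lss was lowest at 3.80 CPM, with the next at 6.06. Hmgcs1 was highest in HFD-75% mouse 1 at 33.7 CPM, with the next at 25.0. Insig1 was highest in HFD-25% mouse 1 at 7.76 CPM, with the next at 6.91.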

How the results depend on the processing

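The count of members called in HFD-25% and HFD-U (0) and in HFD-50% (1, Fdft1) against HFD-C stayed the same under every alternative run, and after adjustment HFD-50% had 1 (Fdft1) with 1 fit over 36 mice. In HFD-75% 1 member, Fdft1, was called in place of 0 with DESeq2, with the rRNA-linked share as covariate and with a term for the library set. In NFD-C 1 was called with a term for the library set and with the high-share libraries alone, Fdft1 in both. For all running mice, 2 (Fdft1 and Lss) were called with the share as covariate and with a term for the library set, and 0 with the low-share libraries alone or with mice 2 to 6 alone. HFD-50% against HFD-25% and against HFD-75% each had 1 (Fdft1) with 1 fit over 36 mice and with mice 2 to 6 alone. Over the 6 groups, 0 members passed the adjusted p with the share as covariate, with a term for the library set (edgeR adjusted p = 0.304) and, chosen after seeing the data, with the 5 high-fat groups alone. Without HFD-50% mouse 4, also chosen after seeing the data, Fdft1 had an edgeR adjusted p = 0.0404. Among the 4 running groups, 1 (Fdft1) was called with 1 fit over 36 mice, with mice 2 to 6 alone, and with the replicate block (edgeR adjusted p = 0.401). The block changed no other call of a member. With mice 2 to 6 alone, 0 pairs of members passed the permutation test after adjustment, while the 3 pairs had r = 0.54, 0.51 and 0.52. The cause of these changes was not tested.

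With 1 mouse left out at a time, the count ran from 0 to 1 in HFD-75% (without HFD-75% mouse 2 or HFD-C mouse 4), NFD-C (Sqle without HFD-C mouse 2, Fdft1 without HFD-C mouse 5) and all running mice (0 without HFD-C mouse 5). Log2 differences that were not called changed sign. For all running mice, Sqle had 0.087 with a term for the library set, 0.090 with low-share libraries alone and 0.0072 with mice 2 to 6 alone, and Insig1 had -0.047 and -0.042 with that term and with low-share libraries alone. Leaving out single mice, the ranges for all running mice were -0.11 to 0.077 for Sqle, -0.26 to 0.074 for Lss, -0.12 to 0.13 for Srebf2 and -0.019 to 0.057 for Insig1, and that of Srebf2 in HFD-50% was -0.041 to 0.22. Idi1 and Sqle had down to 4 and 15 counts in a library, which limits their precision.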
